A study of Mus musculus with 24 samples.

Results

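Microglia activated by lipopolysaccharide (LPS) and astrocytes activated by the cytokines IL-1α and TNFα with the complement protein C1q, both from WT mice, were set against each other to see which reactive cell carries the RNA of which secreted and surface product. All libraries whose labels give the WT genotype and either of these treatments were taken, 3 of microglia and 3 of astrocytes, which is 6 of the 24 samples of the series. The series was made to ask whether the ALS-linked transgene *SOD1G93A* changes cultured glia by itself, and holds 8 groups of 3 samples, quiescent and activated cells of both types and both genotypes. Besides the 6 libraries, the 6 of *SOD1G93A* cells, which carry the mutant human gene as a transgene and were activated in the same way, and the 6 of quiescent WT cells, which received neither LPS nor the cytokines, are used for comparison. RNA was measured by bulk RNA-seq of poly(A)-selected, strand-specific libraries.

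The microglia were primary cells taken from whole brains of perfused p7–p10 pups with magnetic beads against the surface protein Cd11b, and received LPS, a component of the outer membrane of bacteria, at 50 ng/ml. The astrocytes were primary cells of the cortex of P5 pups, and were treated with a mix of 3 ng/ml IL-1α, 30 ng/ml TNFα and 400 ng/ml C1q. They were isolated by immunopanning, in which dishes coated with antibodies or lectin first removed cells of the microglial, endothelial and oligodendrocyte lineages and a dish coated with antibody to HepaCAM then bound astrocytes. Both cultures were free of serum, but the microglial medium held TGF-β2, IL-34, cholesterol and heparan sulfate, and the astrocyte medium held HBEGF. Cell type, stimulus, medium, age and isolation therefore differed together, and their parts in any difference given here cannot be told apart. The time of treatment, and whether the 3 libraries of a group came from separate cultures or animals, are not given in the labels or the methods text used here, though other parts of the study may state them, so p values measure the spread between these libraries, which may be technical. No library repeated another of its group, since the chi-square of paired read numbers, divided by its degrees of freedom, was above the 1 that counting error alone gives in every pair. It was 1.94 to 2.18 in the activated astrocytes and 1.63 between LPS microglial replicates 2 and 3, but 14 and 12.8 between these and replicate 1, which thus stood apart.

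Microglia are the resident macrophages of the brain. They sense LPS through the receptor TLR4 with its helpers CD14 and MD-2, and answer through NF-κB and interferon signalling with cytokines, chemokines and proteases. Astrocytes clear glutamate, buffer ions and lay down matrix and trophic factors, and IL-1α, TNFα and C1q from microglia together drive them into a neuroinflammatory reactive state that is marked by complement *C3*. RNA levels are reported here, and secreted or surface protein was not measured.

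LPS microglia had 8121620, 5098168 and 4674300 reads on genes, and activated astrocytes 5047999, 6768201 and 5749391. The 10 most abundant genes took 9.89% to 11.1% of the reads in the microglia and 4.45% to 4.57% in the astrocytes. Values are normalized counts, reads divided by a size factor for each library, with the 6 libraries scaled together so that the typical gene has the same level in all. In bulk RNA, fewer cells of a type and less RNA per cell cannot be told apart, and a level is relative to the rest of the RNA of its culture. Of 24411 genes, 12309 had a mean of at least 10 normalized counts and were tested with limma on log2(normalized count + 1), with p values adjusted by the Benjamini-Hochberg method over all of them. A gene was called at an adjusted p under 0.001 and a difference of more than 2-fold. Means are given ± SD over the 3 libraries of a group. All differences are log2 values of microglia minus astrocytes, so that a negative one is higher in astrocytes. Those of genes with few reads depend on the added 1, and can lie below or above the ratio of the group means. Intervals and limits from read numbers cover counting error only, since PCR copies are not independent molecules. Positions are those of GENCODE M21 on GRCm38, the same build as mm10.

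The labels were checked against marker genes. Of 21 microglia markers tested, 18 were higher in LPS microglia and 1, *Sall1*, was higher in activated astrocytes (−1.05, limma adjusted p = 3.2e-05), and not called without microglial replicate 1 (−0.91). All 22 listed microglia markers summed to 60247, 58204 and 56899 normalized counts in the 3 microglial libraries and to 2324, 3307 and 2205 in the 3 astrocyte libraries. *Sall1* was the most abundant of them in astrocytes (749 ± 42), and none was at 0 there. The fractalkine receptor gene *Cx3cr1* (chromosome 9, 119901616 to 120069879) had 1901, 2020.1 and 1966 normalized counts in the microglia and 98.6, 169 and 77.7 in the astrocytes, and astrocyte replicate 2 was the highest of the astrocyte libraries. *Tmem119* (104 ± 17.5 in microglia and 33.5 ± 5.92 in astrocytes) and *P2ry12* (33.7 ± 7.11 and 20.3 ± 7.18, not called), markers of resting microglia, were low in both. The call of *Tmem119* was lost under total-read scaling (0.85), and *P2ry12*, at 0.73, was −0.02 under total-read scaling and called at 1.85 under quantile normalization.

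Of 13 astrocyte markers tested, 12 were higher in activated astrocytes, and 1, the glutamine synthetase gene *Glul*, was not called (−0.63, limma adjusted p = 0.0001) but was called at −1.41 under total-read scaling and −1.48 under quantile normalization. The 16 listed astrocyte markers summed to 23823, 23977 and 24671 normalized counts in the astrocyte libraries and to 2853, 2657 and 3415 in the microglial ones, where *Glul* was the most abundant (1356 ± 124) and *S100b* was at 0. *Gfap*, the astrocyte intermediate filament, had 4232, 4112 and 4029.6 normalized counts in astrocytes and 397, 260.0 and 430.5 in microglia (chromosome 11, 102887336 to 102900912). *Hepacam*, the surface protein used for panning, had 973, 1078 and 1111 and 46.6, 36.1 and 69.6, and *Aldh1l1* had 972, 919 and 1041 and 34.7, 42.1 and 42.1 in the same order. For these genes the libraries of the cell types were far apart.

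Markers of other cells were also present. The 14 oligodendrocyte lineage markers summed to 4947, 5107 and 4934 in astrocytes and 1071, 1094 and 1096 in microglia, led by *Olig1* (2336 ± 67.5) in the astrocytes and *Cspg4* (495 ± 34.7) in the microglia, with none at 0. The 14 neuron markers summed to 2019, 2221 and 2268 in astrocytes, mostly *Map2* (1690.2 ± 135), with *Slc17a6* at 0, and to 112, 87.2 and 129 in microglia, where *Rbfox3*, *Syt1*, *Slc17a6* and *Nefl* were at 0. The 12 endothelial markers summed to 601, 660.3 and 692 in astrocytes, nearly all of it *Flt1* (632 ± 41.6), with *Cldn5*, *Cdh5*, *Ly6c1* and *Tie1* at 0, and to 347, 434 and 388 in microglia, mostly *Kdr* (235 ± 47.6), with *Cldn5*, *Tek*, *Emcn*, *Ly6c1* and *Tie1* at 0. The 12 pericyte and fibroblast markers summed to 576, 615 and 571 in astrocytes and 284, 243 and 262 in microglia, led by *Notch3* (242 ± 15.9) and *Acta2* (103 ± 28.1), with *Kcnj8* and *Abcc9* at 0 in both and *Vtn* at 0 in microglia. Of 18 markers of blood monocytes, neutrophils and lymphocytes, 17 were matched to a gene, and these summed to 139, 147 and 119.8 in microglia, led by *Ccr2* (55.9 ± 9.78), with 8 of them, among these *Cd3e* and *Elane*, at 0. In astrocytes they summed to 4.33, 9.05 and 2.33, with 14 at 0 and *Camp* the most abundant. The part of such cells in the differences given here was not tested. Of 12 genes that nearly all cells use, 5 were higher in microglia and 1 in astrocytes, and their median of 0.43 turned to −0.35 under total-read scaling and −0.29 under quantile normalization.

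Of 12309 genes tested, 6078 were called (49.4%), 2841 of them higher in microglia (23.1%) and 3237 higher in astrocytes (26.3%). More than 8-fold differences were called in 2644 genes (21.5%), 1020 higher in microglia (8.29%) and 1624 higher in astrocytes (13.2%). In 10336 genes (84.0%) the libraries of the cell types did not overlap, and 10035 had an adjusted p under 0.05 at any fold, so a gene without a call is not shown to be equal. Without LPS microglial replicate 1, which stood apart from the other 2, 6199 genes were called, 2891 higher in microglia and 3308 in astrocytes. With 3 libraries against 3, the smallest p that exact permutation of the libraries can give for a gene is 0.1, so genes carry the adjusted p of the model. Scaling by total reads moved the median difference of all genes from −0.03 to −0.84 and called 1640 genes higher in microglia and 5391 higher in astrocytes, a share of 23.3% for microglia in place of 46.7%. Of the 6078 calls, 1169 were lost under total-read scaling, with 32 genes not tested there, and 1243 under quantile normalization, some of them of differences well above that shift.

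Among the genes of 19 product lists, 501 of 633 passed the minimum mean. Of those 501, 239 were higher in LPS microglia and 192 in activated astrocytes, and 188 and 136 were over 8-fold apart. These shares (47.7% and 38.3%) are above those of all genes tested (23.1% and 26.3%), but a gene with RNA in only 1 of the cell types passes the minimum through that cell and had to differ. Of the genes counted as secreted or released, 99 of 231 were higher in microglia and 101 in astrocytes. That set holds 21 enzymes that make small mediators rather than secreted proteins, 15 of them higher in microglia and 2 in astrocytes. Genes counted as surface products leaned to microglia, with 140 of 270 against 91. Neither split was counted under other scalings.

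**Figure D1:**
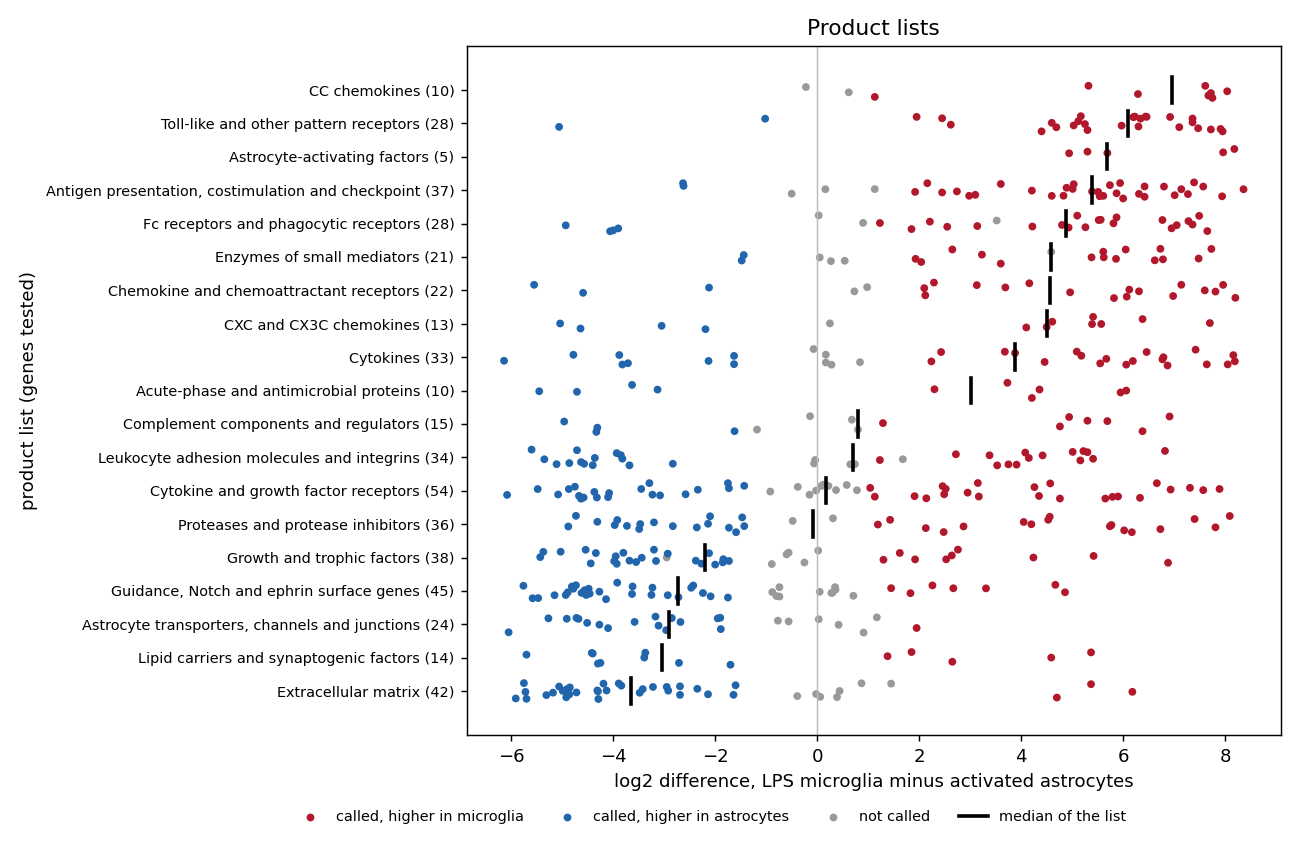
Log2 difference (LPS microglia minus activated astrocytes, x axis) of each tested gene of the 19 product lists (y axis, number of genes tested in parentheses), with the list median as a black bar. Red points were called higher in microglia, blue points were called higher in astrocytes and grey points were not called. Medians run from −3.66 in extracellular matrix to 6.95 in CC chemokines.

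Product genes far higher in microglia were mostly highest, among astrocyte libraries, in the one with the largest sum of microglia markers. Of 174 product genes that were over 8-fold higher in microglia and had more than 3 reads in astrocytes, 137 (78.7%) were highest in replicate 2 of the 3 astrocyte libraries, 20 in replicate 1 and 17 in replicate 3. The same count over all genes tested was 582 of 917 (63.5%), 177 and 158. Replicate 2 also had the largest sum of microglia markers. The part of microglial RNA in the astrocyte levels of such genes was not tested. In the other direction, 130 product genes over 8-fold higher in astrocytes had more than 3 reads in microglia, and 67 (51.5%) were highest in microglial replicate 3, 44 in replicate 1 and 19 in replicate 2, beside 670 of 1401 (47.8%), 496 and 235 over all genes tested. The summed astrocyte markers were in the same order. Product and marker lists share members, among them *C1qa*, *Csf1r* and *Itgam*, and *Slc1a3* in the other direction. These counts are therefore not independent of the marker sums.

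The RNAs of the factors that activate the astrocytes were higher in the microglia. All 5 genes, *Il1a*, *Tnf*, *C1qa*, *C1qb* and *C1qc*, were higher in LPS microglia by more than 8-fold, against 8.29% of all genes. *Il1a* (chromosome 2, 129299610 to 129309972), which encodes IL-1α, had 29434, 32977 and 32169 normalized counts in LPS microglia and 96.9, 149.9 and 86.2 in activated astrocytes, a log2 difference of 8.18 (standard error 0.18, limma adjusted p = 2.2e-09). *Tnf* (chromosome 17, 35199381 to 35202007) had 7848, 7222 and 6644 in microglia and 25.1, 34.9 and 24.9 in astrocytes (log2 difference 7.96, standard error 0.14, limma adjusted p = 1e-09). Every microglial library was far above every astrocyte library for both. The chains of C1q, the starter of the classical complement cascade, differed less. *C1qa* (chromosome 4, 136895917 to 136898803) had 4353, 3472 and 3293 in microglia and 100.4, 168 and 99.4 in astrocytes (4.94, limma adjusted p = 4.1e-08), *C1qb* (chromosome 4, 136880129 to 136886187) had 5963, 4738 and 4344 and 75.3, 152 and 75.4 (5.69, limma adjusted p = 7.8e-08), and *C1qc* (chromosome 4, 136889804 to 136893065) had 2913, 2531 and 2334 and 54.5, 96.9 and 50.5 (5.30, limma adjusted p = 4.9e-08). For all 5 genes replicate 2 was the highest of the astrocyte libraries, as for the sum of the microglia markers. *C1qa*, *C1qb* and *C1qc* are themselves in that marker list, so for them the match is partly built in. IL-1α, TNFα and C1q were added to the astrocytes as proteins, and the part of this in the astrocyte values was not tested.

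The receptors for these factors fell on different sides. *Il1r1* (chromosome 1, 40225080 to 40317257), the signalling receptor for IL-1, had 21, 24 and 16.2 normalized counts in LPS microglia and 189, 175 and 172 in activated astrocytes, so that it was higher in all 3 astrocyte libraries (−3.08, standard error 0.18, limma adjusted p = 3.9e-07). Its partner chain *Il1rap* was also higher in astrocytes (254 ± 44.5 and 1283 ± 78.5, −2.34, limma adjusted p = 2.8e-07). *Tnfrsf1a* (chromosome 6, 125349362 to 125362484), the TNF receptor with a death domain, had 1356, 1202 and 1186 and 1062, 1093 and 1046, a difference of 0.22 that was not called (limma adjusted p = 0.026) and turned to −0.55 under total-read scaling and −0.52 under quantile normalization. *Tnfrsf1b* (chromosome 4, 145213463 to 145246870), the other TNF receptor, had 23803, 27064 and 26675 in microglia and 94.3, 152 and 86.2 in astrocytes (7.89, limma adjusted p = 2.9e-09). Microglia thus carried the RNA of IL-1α with little of its receptor, and that of TNF with both of its receptors.

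**Figure D2:**
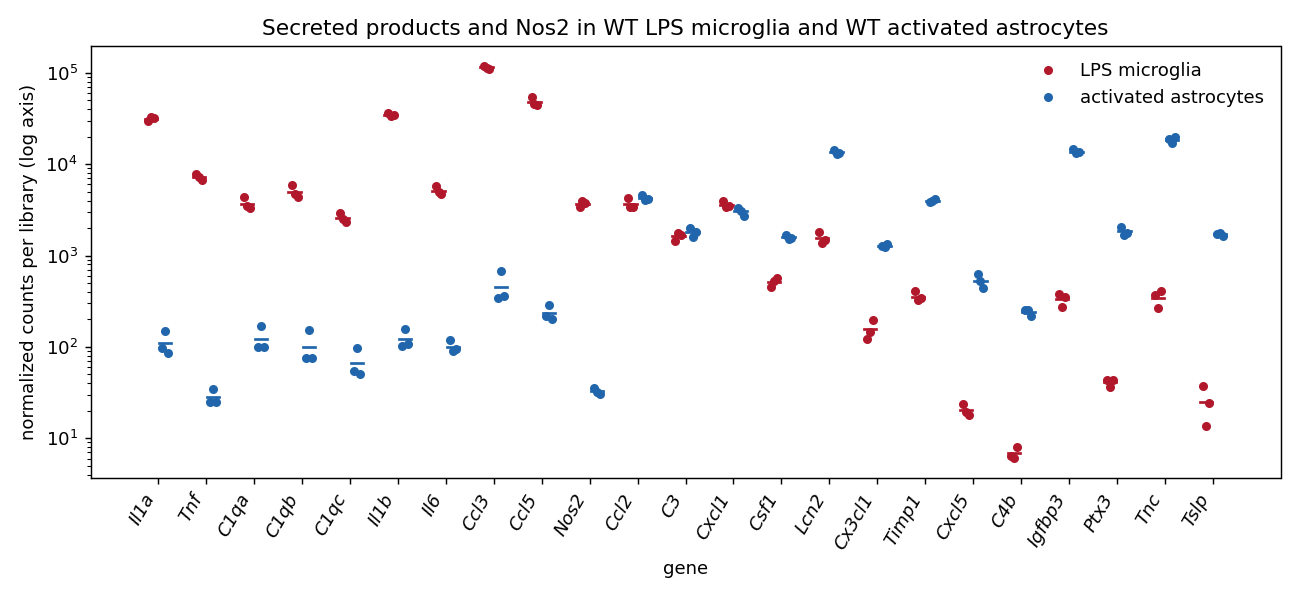
Normalized counts (y axis, log scale) of 22 secreted products and of the enzyme gene Nos2 (x axis) in each of 3 WT LPS microglial libraries (red) and 3 WT activated astrocyte libraries (blue), with bars at the group means. Genes called higher in microglia stand on the left, genes called higher in astrocytes on the right and Ccl2, C3 and Cxcl1, which were not called, between them, with overlapping groups at Ccl2 and C3.

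Most cytokines with a call were microglial. Of 33 cytokine genes tested, 20 were higher in LPS microglia (60.6%, against 23.1% of all genes) and 8 in activated astrocytes (24.2%, against 26.3%), with a median of 3.88 beside −0.03 over all genes. *Il1b* (chromosome 2, 129364570 to 129371139) had 36271, 33339.6 and 34349 normalized counts in microglia and 101, 158 and 109 in astrocytes (8.16, limma adjusted p = 1.2e-09). *Il1rn*, which encodes the natural antagonist of the IL-1 receptor, had 24133, 28121 and 26332 and 77.9, 138 and 64.5 (8.19, limma adjusted p = 6.3e-09). Thus the agonists and the antagonist lay on the same side. *Il12b*, a subunit of IL-12 and IL-23, had a mean of 15959 ± 1220.4 against 61.7 ± 23.6 (8.05, limma adjusted p = 5.2e-09), and *Osm*, a relative of IL-6, 1333 ± 43.1 against 6.53 ± 4.02 (7.64, limma adjusted p = 1.4e-07). *Il6* (chromosome 5, 30013114 to 30019981) had 5748, 5026 and 4692 in microglia and 118, 90.5 and 94 in astrocytes (5.67, standard error 0.12, limma adjusted p = 1.9e-09), with no overlap. *Il27*, with 0 reads in astrocytes, was at least 159.5-fold higher in microglia, taking 3 reads over the astrocyte group as the floor. *Il10*, an anti-inflammatory cytokine, had 1 read over the astrocyte group, and was 833-fold higher in microglia (95% counting interval 149 to 32958).

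Astrocytes carried a smaller set of cytokines, several of which act on myeloid or barrier cells. *Tslp* (chromosome 18, 32815383 to 32819797), known from epithelial barriers, had 1729.7, 1783 and 1621 normalized counts in activated astrocytes and 37.5, 13.5 and 24.3 in LPS microglia (−6.14, standard error 0.29, limma adjusted p = 1.1e-07), the largest difference towards astrocytes in the list. *Il34*, a ligand of the CSF1 receptor, had 179, 162 and 138 and 7.31, 4.51 and 3.24 (−4.78, limma adjusted p = 4e-07), and the other ligand, *Csf1* (chromosome 3, 107741048 to 107760469), had 1696, 1514 and 1574 and 453, 523 and 569.7 (−1.63, limma adjusted p = 5.3e-07). IL-34 protein was part of the microglial medium. *Il33*, an alarmin, had means of 67.2 ± 11.3 in astrocytes and 3.91 ± 1.37 in microglia (−3.82, limma adjusted p = 2.5e-06), and *Clcf1*, of the IL-6 family, 503 ± 126 and 112 ± 11.1 (−2.13, limma adjusted p = 3.7e-06). *Tgfb1* and *Tgfb3* parted, *Tgfb1* being higher in microglia (5.09) and *Tgfb3* in astrocytes (−3.88). The 5 cytokines without a call were *Spp1*, *Lif*, *Il11*, *Tgfb2* and *Il18*.

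Of 10 CC chemokine genes tested, 8 were higher in LPS microglia, against 23.1% of all genes, 7 of them over 8-fold, against 8.29%, and none in activated astrocytes (median 6.95; 8 of the 18 listed genes did not pass the minimum mean). CC chemokines recruit monocytes and lymphocytes. *Ccl3* (chromosome 11, 83647844 to 83649355) had 120169, 113554 and 110755 normalized counts in microglia and 341, 671 and 358 in astrocytes (8.04, limma adjusted p = 5.6e-09). *Ccl5* (chromosome 11, 83525778 to 83530518) had 54192, 45736 and 44346 and 219, 288 and 203 (7.67, limma adjusted p = 1.1e-09), and *Ccl4* 10107, 7870.1 and 7825 and 31.2, 54.3 and 34.2 (7.75, limma adjusted p = 3.6e-09). None of these had overlapping groups, which the rule that named *Ccl3* and *Ccl4* required. *Ccl9* (7.72) and *Ccl22* (7.61) were of similar size. *Ccl2* (chromosome 11, 82035571 to 82037453), the main attractant of Ccr2-bearing monocytes, stood apart with 4311, 3435 and 3404 in microglia and 4644, 4100.1 and 4193 in astrocytes, where the groups overlapped and the difference of −0.22 was not called (limma adjusted p = 0.084). Under quantile normalization *Ccl2* was called higher in astrocytes (−1.26). Its neighbour *Ccl7* was higher in microglia by a small margin (687 ± 141 and 309 ± 31, 1.13, limma adjusted p = 8.6e-05), which was lost under total-read scaling (0.36), under quantile normalization (0.69) and without microglial replicate 1 (0.98).

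Of 13 CXC and CX3C chemokines tested, 8 were higher in LPS microglia and 4 in activated astrocytes (61.5% and 30.8%, against 23.1% and 26.3% of all genes, median 4.50, or 4.61 with *Cxcl13*, at 0 reads in astrocytes, at its lower bound). The neutrophil attractants split by gene. *Cxcl3* had 4112, 3459 and 3706 normalized counts in microglia and 18.2, 23.3 and 11.7 in astrocytes (7.70, limma adjusted p = 5e-09), and *Cxcl2* had means of 13383 ± 729 and 320.3 ± 42.9 (5.39, limma adjusted p = 1.4e-09). *Cxcl5* (chromosome 5, 90759360 to 90761624) had 23.8, 19.5 and 17.8 in microglia and 633, 521 and 446 in astrocytes and so was the neutrophil attractant higher in astrocytes (−4.64, limma adjusted p = 2.3e-08). *Cxcl1* had 3916, 3418 and 3517 and 3355, 3057 and 2728, with a difference of 0.25 that was not called (limma adjusted p = 0.038) and was −0.53 under total-read scaling. The interferon-induced *Cxcl9* had 133, 141 and 157 in microglia and 0, 1.94 and 0.777 in astrocytes (6.38, limma adjusted p = 6.2e-07), on 4 reads over the astrocyte group, and *Cxcl10* had means of 8905 ± 1462 and 513 ± 30.9 (4.10, limma adjusted p = 7e-09). *Cx3cl1* (chromosome 8, 94772009 to 94782427), fractalkine, whose receptor marks microglia, had 1262, 1234 and 1335 in astrocytes and 123, 147 and 196 in microglia (−3.05, limma adjusted p = 1.5e-07). *Cxcl12* was also higher in astrocytes (91.7 ± 25.5 and 2.42 ± 2.27, −5.04, limma adjusted p = 4.2e-05), as was *Cxcl14* (−2.19).

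Complement genes were called on both sides. Of 15 genes tested among 32 listed, 7 were higher in LPS microglia (46.7%, against 23.1% of all genes) and 4 in activated astrocytes (26.7%, against 26.3%), with a median of 0.80. Total-read scaling gave a median of 0.09 with 6 and 5 calls, and quantile normalization 1.78 with 9 and 2. *C3* (chromosome 17, 57203970 to 57228136), the central component and the marker of neuroinflammatory astrocytes, had 1447, 1762 and 1689.6 normalized counts in microglia and 1994, 1601 and 1817 in astrocytes, and the groups overlapped (−0.14, standard error 0.11, limma adjusted p = 0.24). The 95% interval of this log2 difference was −0.39 to 0.10, but the scaling moved it beyond that, to −0.92 with total reads and −0.99 with quantile normalization, neither of them called. Factor B, *Cfb* (chromosome 17, 34856374 to 34862518), which forms the alternative pathway convertase with C3, had 1264, 1001 and 974 in microglia and 6.92, 7.75 and 9.32 in astrocytes (6.91, limma adjusted p = 2.6e-09). *C2*, its classical counterpart, had 259, 240.5 and 246 and 1.73, 1.94 and 2.33 (6.38, limma adjusted p = 1.1e-08), and properdin, *Cfp*, which stabilizes the alternative convertase, had means of 713 ± 126 and 25.2 ± 2.42 (4.76, limma adjusted p = 1e-08). *C4b* (chromosome 17, 34728380 to 34743882) had 253, 252 and 219 in astrocytes and 6.40, 6.01 and 8.09 in microglia (−4.96, limma adjusted p = 2.4e-08), and reads may be split with its near-identical copy *C4a*, which did not pass the minimum mean. *Clu*, clusterin, a regulator of the terminal pathway and a lipid carrier, had 1548, 1409.8 and 1332 and 65.8, 57.1 and 95.5 (−4.31, limma adjusted p = 3.9e-08). The classical protease *C1s1* had a mean of 31 ± 2.55 in astrocytes and 2 reads over the microglial group, and was 36.6-fold higher in astrocytes (95% counting interval 9.93 to 306). Its call was lost under quantile normalization (−3.29) and without astrocyte replicate 1 (−4.25).

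Of 28 acute-phase and antimicrobial genes listed, 18 did not pass the minimum mean, and of the 10 tested 6 were higher in LPS microglia, against 23.1% of all genes, and 4 in activated astrocytes, against 26.3%. *Lcn2* (chromosome 2, 32384633 to 32388252), lipocalin-2, which binds bacterial siderophores, had 14268, 13056 and 13349.8 normalized counts in astrocytes and 1816, 1371 and 1476 in microglia (−3.13, standard error 0.11, limma adjusted p = 1.7e-08). *Ptx3*, a secreted pentraxin, had 2055, 1691 and 1770.5 and 43.9, 36.1 and 43.7 (−5.45, limma adjusted p = 2e-09), and the protease inhibitor *Serpina3n* 1156, 1093 and 945 and 51.2, 24 and 50.2 (−4.71, limma adjusted p = 2.9e-07). Ceruloplasmin, *Cp*, was the remaining astrocyte product (12275 ± 717 and 988 ± 34.1, −3.63). *Saa3*, serum amyloid A3, had 24471, 15381 and 15704 in microglia and 278, 277 and 259 in astrocytes (6.06, limma adjusted p = 4.7e-09), and replicate 1 was the highest of the microglial libraries. *Lyz2*, lysozyme, had 29113, 22280.0 and 22996 and 337, 613 and 301 (5.95, limma adjusted p = 3.9e-08), again with microglial replicate 1 and astrocyte replicate 2 the highest of their groups. The groups did not overlap for any of these genes, as for 84.0% of all genes tested. For *Ptx3*, *Serpina3n*, *Saa3* and *Lyz2* this was a condition of the rule by which they were named.

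Proteases and their inhibitors were balanced in number, with 17 of 36 higher in each cell (47.2%, against 23.1% of all genes for microglia and 26.3% for astrocytes) and a median of −0.08, which was −0.86 under total-read scaling. *Mmp13*, a collagenase, had 5408, 5901 and 6166 normalized counts in LPS microglia and 15.6, 34.2 and 15.5 in activated astrocytes (8.09, limma adjusted p = 1.2e-08). The neutrophil collagenase *Mmp8* had 439.8, 445 and 555 and 0.865, 1.94 and 0.777 (7.81, limma adjusted p = 1.1e-08) on 5 reads over the astrocyte group, and *Mmp12* means of 6825 ± 244 and 63.9 ± 12.9 (6.73). The cathepsins *Ctss* (5.77), *Ctsz* (5.74), *Ctsb* (4.05) and *Ctsd* (2.87) were higher in microglia. Under quantile normalization these values were 5.15, 4.85, 2.68 and 1.31. Higher in astrocytes was the tissue inhibitor *Timp1* (chromosome X, 20870166 to 20874735), with 3908, 3959 and 4137 in astrocytes and 405, 323 and 339.9 in microglia (−3.49, limma adjusted p = 4.8e-09), together with *Timp2* (−1.47), *Timp3* (−1.59) and *Timp4* (−2.36, not called at −1.23 under quantile normalization). *Mmp15*, which is anchored in the membrane, had 1243, 1341 and 1429 and 45.7, 34.6 and 55 (−4.88, limma adjusted p = 1.2e-08), and tissue plasminogen activator, *Plat*, 577, 603 and 618 and 26.5, 18 and 21 (−4.73, limma adjusted p = 1.1e-08). The gelatinase *Mmp9* (145 ± 21.5 and 10.7 ± 4.48, −3.73) and the stromelysin *Mmp3* (129 ± 9.66 and 30 ± 11.4, −2.14) were also higher in astrocytes. *Serpinb2*, an inhibitor of plasminogen activators, was microglial (7.40), and *Serpine2* was astrocytic (−3.20).

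Extracellular matrix was the most astrocytic of the secreted lists. Of 42 genes tested, 32 were higher in activated astrocytes (76.2%, against 26.3% of all genes), 24 of them over 8-fold, and 3 in LPS microglia, with a median of −3.66. *Tnc* (chromosome 4, 63959785 to 64047015), tenascin C, had 18755, 16983 and 19718 normalized counts in astrocytes and 366, 265 and 413 in microglia (−5.75, limma adjusted p = 4.2e-09). The hyaluronan synthases went opposite ways, *Has2* having 234, 244 and 251 in astrocytes and 3.66, 4.51 and 1.62 in microglia (−5.91, limma adjusted p = 1.3e-07) and *Has1* 221, 177 and 248 in microglia and 3.46, 1.29 and 1.55 in astrocytes (6.18, limma adjusted p = 1.3e-07). So did the thrombospondins, secreted proteins that promote synapse formation. *Thbs1* (chromosome 2, 118111876 to 118127133) had 9848, 17052 and 16338 in microglia and 348, 351 and 314 in astrocytes (5.37, limma adjusted p = 1.8e-08), and *Thbs2* 12.8, 9.02 and 6.47 and 537, 513 and 528 (−5.70, limma adjusted p = 2.8e-08). Microglial replicate 1 was the lowest of its group for *Thbs1*, but still far above the astrocytes. The laminins *Lama5* (−5.72) and *Lamb1* (−4.92), the nidogen *Nid1* (−5.31) and the brain proteoglycans *Bcan* (−4.85) and *Ncan* (−4.31) were astrocytic, and fibronectin, *Fn1*, was not called (914 ± 165 in microglia and 916 ± 28.2 in astrocytes, −0.02, limma adjusted p = 0.89). The fibrillar collagens *Col1a1* (17.8 ± 11.1 in microglia and 11.5 ± 4.91 in astrocytes) and *Col3a1* (18 ± 8.69 and 12.9 ± 3.81) were low and not called.

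Growth and trophic factors were higher in activated astrocytes in 23 of 38 genes tested and in LPS microglia in 9 (60.5% and 23.7%, against 26.3% and 23.1% of all genes, median −2.19). *Igfbp3* (chromosome 11, 7206086 to 7213923), a carrier of insulin-like growth factors, had 14681, 13191 and 13455 normalized counts in astrocytes and 379, 272 and 354 in microglia (−5.37, limma adjusted p = 2.5e-09). The growth factor itself, *Igf1* (chromosome 10, 87858265 to 87937042), lay on the other side with 3689, 4171 and 3921 in microglia and 89.1, 121 and 69.1 in astrocytes (5.42, limma adjusted p = 1.2e-08), as did the carriers *Igfbp5* (2.76) and *Igfbp4* (1.92). *Wnt7b* had 287, 249 and 242 in astrocytes and 1.83, 7.52 and 8.09 in microglia (−5.43, limma adjusted p = 2.4e-06). *Edn1*, endothelin-1, had 308, 337 and 325 in microglia and 1.73, 1.29 and 2.33 in astrocytes (6.88, limma adjusted p = 9.9e-09), on 7 reads over the astrocyte group. Pleiotrophin, *Ptn* (1820.2 ± 198 and 77.9 ± 14.5, −4.54), *Hbegf* (939 ± 58.8 and 60.1 ± 8.37, −3.95) and *Bdnf* (47.4 ± 3.40 and 3.53 ± 1.15, −3.44) were higher in astrocytes, and *Pdgfb* (4.24) and *Vegfa* (1.30) in microglia. HBEGF protein was part of the astrocyte medium.

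Lipid carriers and synaptogenic factors were higher in astrocytes in 9 of 14 genes tested (64.3%, against 26.3% of all genes) and in microglia in 5 (35.7%, against 23.1%). Apolipoprotein E, *Apoe*, was abundant in both and higher in microglia (19238 ± 3676 and 7294 ± 197, 1.38, limma adjusted p = 8.9e-06), but not called under total-read scaling (0.60) or quantile normalization (0.07). Progranulin, *Grn*, had 19411, 18144 and 17437 normalized counts in microglia and 678, 861 and 752 in astrocytes (4.59, limma adjusted p = 2e-09). *Chrdl1*, which matures glutamate synapses, had 183, 214 and 207 in astrocytes and 8.23, 7.52 and 9.71 in microglia (−4.42, limma adjusted p = 3.8e-08), and the glypicans *Gpc4* (−3.39) and *Gpc6* (−4.40), which also act on synapses, were on the same side.

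Enzymes that make small mediators were mostly microglial, with 15 of 21 higher in LPS microglia and 2 in activated astrocytes (71.4% and 9.52%, against 23.1% and 26.3% of all genes, median 4.59). *Nos2* (chromosome 11, 78920787 to 78960254), inducible nitric oxide synthase, had 3443, 3922 and 3737 normalized counts in microglia and 35.5, 32.3 and 30.3 in astrocytes (6.78, standard error 0.10, limma adjusted p = 9e-10). *Irg1*, now called *Acod1*, which makes itaconate, had 27172, 30804 and 29981 and 116, 179.6 and 122 (7.73, limma adjusted p = 1.5e-09). *Cybb*, the catalytic subunit of the phagocyte oxidase, had 22912, 32058 and 31281 and 140.2, 215 and 131 (7.48, limma adjusted p = 4.1e-09). The inducible cyclooxygenase *Ptgs2*, with means of 69902 ± 16320.0 and 1393 ± 98.2 (5.62), and the prostaglandin E synthase *Ptges*, with 9183 ± 348 and 157 ± 13.6 (5.86), were microglial. Under quantile normalization *Ptgs2* was at 4.14 and *Ptges* at 5.33. Higher in astrocytes were *Ptges2* (406, 402 and 372 in astrocytes and 157, 135 and 142 in microglia, −1.44, limma adjusted p = 1.3e-06) and serine racemase, *Srr* (329.7, 306 and 294 and 101, 107 and 123, −1.48, limma adjusted p = 2.4e-06). Neither reached 8-fold.

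Levels of different genes can be compared within a cell only per length. Per kilobase of exon, 228 genes counted as secreted or released were ranked. The most abundant in LPS microglia were *Ccl3* (149903 normalized counts per kilobase), *Ccl5* (50095), *Lyz2* (18842), *Ctsd* (18409) and *Il1b* (18172). In activated astrocytes the first were *Lcn2* (5169), *Timp1* (4506), *Igfbp3* (4401), *Ccl2* (3789) and *Apoe* (3412). On the same scale *Il1a* was at 15971 and *Tnf* at 4416 in microglia. Exon lengths are those of the merged exons of all transcripts in the annotation, and the length that the cells use may be shorter.

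Surface receptors for microbes and damage were nearly all microglial. Of 28 Toll-like and other pattern receptors tested, 26 were higher in LPS microglia (92.9%, against 23.1% of all genes), 23 of them over 8-fold, and 2 in activated astrocytes, with a median of 6.09. *Clec4d* had 4247, 3652 and 3591 normalized counts in microglia and 6.92, 30.4 and 14 in astrocytes (7.95, limma adjusted p = 1.7e-07), and *Clec4e*, the receptor for mycobacterial cord factor, 8921, 8859 and 8728 and 30.3, 56.9 and 26.4 (7.91, limma adjusted p = 7.7e-09). Astrocyte replicate 2 was the highest of its group for both. The LPS receptor complex differed by part, *Cd14* with means of 35139 ± 1208 and 399 ± 48.7 (6.46, limma adjusted p = 9e-10), *Tlr4* with 271 ± 38.9 and 69 ± 6.35 (1.95, limma adjusted p = 1.7e-06) and *Ly96*, which encodes MD-2, with 141 ± 22.3 and 22 ± 2.09 (2.62, limma adjusted p = 9.9e-07). The LPS carrier *Lbp* was astrocytic, with 56.3 ± 7.55 normalized counts in astrocytes and 2 reads over the microglial group, and was 67.6-fold higher in astrocytes (95% counting interval 18.5 to 562). The scavenger receptor *Scarb1* had 475, 449 and 512 in astrocytes and 233, 243 and 228 in microglia (−1.02, limma adjusted p = 5.9e-06), close to the 2-fold limit, and was not called without microglial replicate 3 (−0.97) or without astrocyte replicate 3 (−0.99).

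Cytokine and growth factor receptors divided evenly, 23 of 54 higher in LPS microglia (42.6%, against 23.1% of all genes) and 21 in activated astrocytes (38.9%, against 26.3%), with a median of 0.17 that turned to −0.60 under total-read scaling. *Cd40*, a costimulatory receptor of the TNF receptor family, had 2819, 2495 and 2334 normalized counts in microglia and 13, 15.5 and 9.32 in astrocytes (7.57, limma adjusted p = 2.5e-09), *Csf1r* means of 5727 ± 249.9 and 217 ± 69.4 (4.76), *Csf2rb* 6724 ± 879.7 and 44.3 ± 20.4 (7.31) and *Il10ra* 1285 ± 47.1 and 15.4 ± 4.71 (6.33). *Osmr* (chromosome 15, 6813577 to 6874969), the oncostatin M receptor of the IL-6 family, had 639, 587 and 534 in astrocytes and 18.3, 12 and 8.09 in microglia (−5.48, limma adjusted p = 8.5e-08), and *Cntfr* 182, 189 and 165 and 3.66, 3.01 and 0 (−6.08, limma adjusted p = 6e-06). *Lifr*, another receptor of that family, was on the same side (−2.58), while the shared chain *Il6st* (−0.38, called at −1.16 under total-read scaling and −1.05 under quantile normalization) and *Il6ra* (0.12) were not called. The growth factor receptors *Egfr* (1362 ± 127 and 54.3 ± 7.36, −4.63), *Ntrk2* (−4.32), *Fgfr1* (−4.10), *Fgfr3* (−4.58) and *Pdgfra* (−4.87) were higher in astrocytes, and *Kdr* (5.65) in microglia. *Pdgfra* is also one of the oligodendrocyte lineage markers whose sum was higher in the astrocyte libraries, and *Kdr* is also the main endothelial marker of the microglial libraries.

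Chemokine and chemoattractant receptors were higher in LPS microglia in 17 of 22 genes tested and in activated astrocytes in 3 (77.3% and 13.6%, against 23.1% and 26.3% of all genes, median 4.56). *Ccr7*, which guides cells to lymph nodes, had 614, 598 and 678 normalized counts in microglia and 1.73, 2.58 and 0 in astrocytes (8.20, limma adjusted p = 1.8e-07), on 6 reads over the astrocyte group. *Ccrl2*, a non-signalling receptor, had 7516, 8609.6 and 8071 and 26.8, 42 and 27.2 (7.96, limma adjusted p = 1.8e-09). The receptor for the C3 fragment C3a, *C3ar1*, had means of 10856 ± 855 and 89.2 ± 35.3 (6.98, limma adjusted p = 1.1e-08). *Ccr2*, with 0 reads in astrocytes, was at least 72.2-fold higher in microglia (46.6, 66.1 and 55). In astrocytes the sphingosine phosphate receptor *S1pr3* had 515, 467 and 461 and the microglia 9.14, 9.02 and 9.71 (−5.55, limma adjusted p = 3.1e-09), and the ADP receptor *P2ry1* 185, 196 and 209.8 and 10.1, 4.51 and 8.09 (−4.59, limma adjusted p = 3.8e-07).

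Adhesion molecules were called on both sides, with 15 of 34 higher in LPS microglia (44.1%, against 23.1% of all genes) and 14 in activated astrocytes (41.2%, against 26.3%) and a median of 0.70 that was −0.08 under total-read scaling and 0.08 under quantile normalization. Of the leukocyte integrins, *Itgal* had 4753, 6119 and 6049.7 normalized counts in microglia and 36.3, 76.2 and 41.2 in astrocytes (6.82, limma adjusted p = 2.1e-08) and *Itgam*, the Cd11b chain used for sorting, had 5106, 5978 and 6273 and 121, 182 and 110.3 (5.41, limma adjusted p = 1.2e-08). Their ligands parted. *Icam1* was higher in microglia (1285 ± 26.2 and 196 ± 26.1, 2.72, limma adjusted p = 3.3e-08), while *Vcam1* (chromosome 3, 116109949 to 116129688), which binds the integrin that *Itga4* helps to form, had 2548, 2162 and 2312 in astrocytes and 75, 70.6 and 95.5 in microglia (−4.86, limma adjusted p = 3.8e-09). *Sele*, E-selectin, was also higher in astrocytes (86.7 ± 8.55 and 1.45 ± 1.38, −5.35). The laminin-binding integrin *Itga7* had 1026, 896 and 872 and 23.8, 12 and 21 (−5.60, limma adjusted p = 3.9e-08), and the cadherin *Cdh4* 719.9, 733 and 846 and 22.9, 15 and 27.5 (−5.11, limma adjusted p = 3.6e-08). The hyaluronan receptor *Cd44* was abundant in both (4272 ± 796 and 2688 ± 169) and not called (0.65).

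Antigen presentation and costimulation lay with the microglia. Of 37 genes tested, 32 were higher in LPS microglia (86.5%, against 23.1% of all genes), 27 of them over 8-fold, and 2 in activated astrocytes, with a median of 5.39. *Slamf7* had 6596, 8631 and 7778 normalized counts in microglia and 14.7, 36.2 and 20.2 in astrocytes (8.36, limma adjusted p = 1.2e-08), and the costimulatory *Cd86* 1265, 1269 and 1199 and 2.60, 6.46 and 3.88 (7.94, limma adjusted p = 8.7e-09). The MHC class I genes *H2-K1* (18739 ± 1829 and 383 ± 27.3, 5.61) and *H2-D1* (18534 ± 798 and 233 ± 18.6, 6.31) were microglial, though reads of such near-identical genes can be split between copies, and so was *B2m* (5.39), which pairs with them. The checkpoint ligand *Cd274* (PD-L1) had means of 6833 ± 701 and 48.1 ± 11.5 (7.14, limma adjusted p = 2.6e-09). Higher in astrocytes were *Cd276* (608, 658 and 688 in astrocytes and 99.7, 99.2 and 115 in microglia, −2.63, limma adjusted p = 3.1e-08) and *Cd24a* (931, 809 and 834 and 125, 139.8 and 151, −2.62, limma adjusted p = 3.2e-08).

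Fc and phagocytic receptors were higher in LPS microglia in 21 of 28 genes tested and in activated astrocytes in 4 (75.0% and 14.3%, against 23.1% and 26.3% of all genes, median 4.87). *Siglec1* had 2839.9, 4045 and 4048 normalized counts in microglia and 15.6, 30.4 and 10.1 in astrocytes (7.65, limma adjusted p = 5.9e-08), and the high-affinity IgG receptor *Fcgr1* 4418, 3888 and 3459 and 16.4, 30.4 and 17.9 (7.49, limma adjusted p = 5.6e-09). The receptors for apoptotic cells divided within a family. *Axl* (4572 ± 659 and 1254 ± 31.9, 1.85) and *Mertk* (333 ± 51.7 and 71.1 ± 9.04, 2.21) were higher in microglia, and *Tyro3* had 145, 139 and 139.8 in astrocytes and 7.31, 6.01 and 9.71 in microglia (−4.06, limma adjusted p = 2.1e-07). *Adgrb1*, which binds phosphatidylserine, had 455, 499 and 477 and 16.5, 9.02 and 21 (−4.93, limma adjusted p = 2.2e-07), and *Megf10*, by which astrocytes engulf synapses, was on the same side (−4.00). *Lrp1* was not called (5197 ± 967 and 5046 ± 381, 0.03), but was called higher in astrocytes under quantile normalization (−1.10).

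Transporters, channels and junction genes of astrocytes were higher in activated astrocytes in 17 of 24 genes tested and in LPS microglia in 1 (70.8% and 4.17%, against 26.3% and 23.1% of all genes, median −2.90). The list was made of genes known from astrocytes and holds astrocyte markers such as *Slc1a3*. Its direction was thus largely set by the choice of members. *Steap4* (chromosome 5, 7960457 to 7982213), a metalloreductase, had 6213, 5978 and 5915 normalized counts in astrocytes and 97.8, 75.2 and 98.7 in microglia (−6.05, limma adjusted p = 1.2e-09). *Slc1a3* (chromosome 15, 8634124 to 8710764), the glutamate transporter GLAST, had 9610.0, 9749.6 and 10085 and 294, 179 and 311 (−5.27, limma adjusted p = 1.7e-08), and the other glutamate transporter of astrocytes, *Slc1a2*, differed less (1316 ± 25.8 and 344 ± 63.6, −1.95). The glucose transporter *Slc2a1* was the microglial member, with 1606, 1671 and 1683 in microglia and 481, 384 and 419 in astrocytes (1.95, limma adjusted p = 1.2e-07). It was at 1.33 under quantile normalization and 1.18 under total-read scaling. Under other scalings 1, 2 or 3 members of the list were called higher in microglia. The cystine transporter *Slc7a11* was abundant in both (7585 ± 635 in astrocytes and 4612 ± 1414 in microglia) and not called (−0.77), except at −1.55 under total-read scaling and −1.91 under quantile normalization.

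Guidance, Notch and ephrin genes were higher in activated astrocytes in 28 of 45 genes tested and in LPS microglia in 7 (62.2% and 15.6%, against 26.3% and 23.1% of all genes, median −2.72). *Sema5b* had 395, 351 and 305 normalized counts in astrocytes and 9.14, 9.02 and 1.62 in microglia (−5.76, limma adjusted p = 4.1e-06), and *Notch3*, which is also a pericyte marker, 234, 231 and 260.3 and 4.57, 3.01 and 4.86 (−5.58, limma adjusted p = 2.8e-08). The repulsive ligand *Slit2* (−5.15) and its receptors *Robo1* (−4.93) and *Robo2* (−5.47) were also higher in astrocytes. On the microglial side *Nrp2* had 2824, 4130.4 and 4244 in microglia and 115, 159 and 107 in astrocytes (4.86, limma adjusted p = 3.1e-08) and *Sema4d* 1848, 2455 and 2208 and 77, 98.9 and 77.7 (4.67, limma adjusted p = 6.7e-09). *Notch2* (2.26) and its ligand *Jag1* (2.67) were also higher in microglia.

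Ligands were then set beside their receptors in 50 pairs. Both genes were called in 32 pairs, in 18 of them on the same side and in 14 on opposite sides. Of single genes, 23.1% of all tested were higher in microglia and 26.3% in astrocytes, and of product genes 47.7% and 38.3%. Whether the pair counts depart from what such shares give was not tested. In 7 pairs the ligand was higher in LPS microglia and the receptor in activated astrocytes. These were *Il1a* and *Il1b* with *Il1r1*, *Osm* with *Osmr*, *Igf1* with *Igf1r* (−3.23), *Vegfa* with *Flt1* (−4.37), *Tnfsf10* (3.88) with *Tnfrsf10b* (−3.29) and *Edn1* with *Ednrb* (−3.80). The other VEGF receptor, *Kdr*, was not among the pairs and was microglial (5.65). *Flt1* is also the main endothelial marker of the astrocyte libraries, and *Kdr* that of the microglial ones. In 7 pairs the ligand was higher in astrocytes and the receptor in microglia. They were *Csf1* and *Il34* with *Csf1r*, *Cx3cl1* with *Cx3cr1* (4.16), *Cxcl12* with *Cxcr4* (3.13), *Gas6* (−1.84) with *Axl*, *Pros1* (−1.73) with *Mertk*, and *Vcam1* with *Itga4* (5.01). In 15 pairs both genes were microglial, among them *Tnf* with *Tnfrsf1b*, and in 3 both were astrocytic, *Hbegf* with *Egfr*, *Bdnf* with *Ntrk2* and *Cxcl12* with *Ackr3* (−2.12). The calls of *Vegfa* (0.52 under total-read scaling, 0.82 under quantile normalization) and *Axl* (0.96 under quantile normalization) were lost, as was that of *Ackr3* under quantile normalization (−0.87) and without microglial replicate 3 (−2.00) or astrocyte replicate 1, 2 or 3 (−2.23, −1.97 and −2.17). For *C3* the ligand was not called and its receptors *C3ar1* and *Itgam* were microglial, and for *Ccl2* the receptor *Ccr2* was. The pairs describe RNA in separate cultures, and signalling between the cells was not measured.

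**Figure D3:**
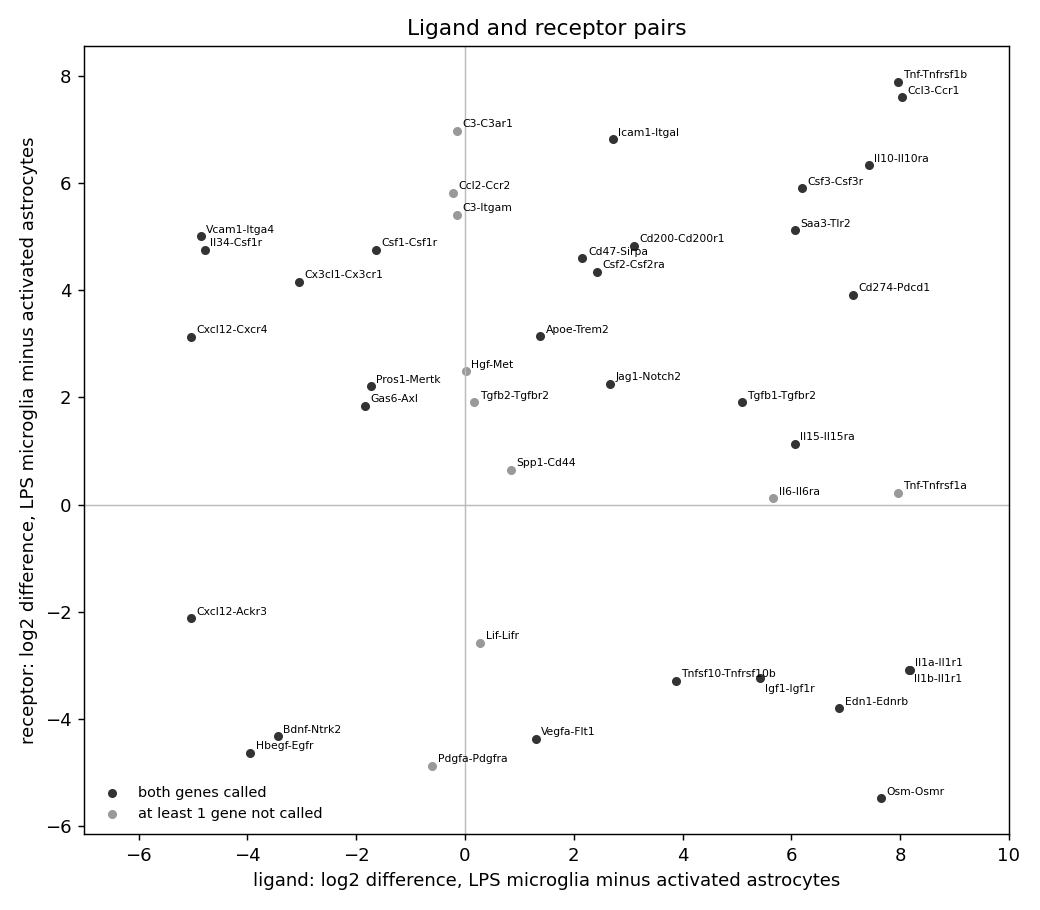
Each point is a ligand and receptor pair, at the log2 difference (LPS microglia minus activated astrocytes) of the ligand (x axis) and of the receptor (y axis), drawn where both genes were tested. Dark points have both genes called. Points in the lower right have the ligand higher in microglia and the receptor higher in astrocytes, and those in the upper left the reverse.

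Over all genes, the largest differences with at least 100 normalized counts in the higher group were mostly in genes of other kinds. Towards LPS microglia they were *H2-Q8* (9.89, limma adjusted p = 1.4e-06), *Ifi205* (8.69, limma adjusted p = 1.7e-08), *Coro2a* (8.55, limma adjusted p = 2.6e-08), *Gvin1* (8.54, limma adjusted p = 1.5e-06) and *Slfn1* (8.48, limma adjusted p = 2.3e-07). *H2-Q8* had 1898, 1901 and 1855 normalized counts in microglia and 6.92, 0 and 0 in astrocytes, and its value is uncertain, since reads can be shared with other MHC genes of almost the same sequence. *Ifi205*, *Gvin1* and *Slfn1* also belong to families of similar genes. Towards activated astrocytes they were, in the order of the fitted values, *Vldlr* (−7.62, limma adjusted p = 7.6e-06), *Nckap5* (−6.98, limma adjusted p = 7.1e-06), *Iqsec3* (−6.59, limma adjusted p = 1.1e-07), *Sytl2* (−6.58, limma adjusted p = 2.1e-06) and *Rgs8* (−6.44, limma adjusted p = 3.4e-06). The order of *Vldlr* and *Nckap5*, which had few reads in microglia, may depend on the added 1. *Vldlr*, a receptor for apolipoprotein E and reelin, had 361, 398 and 391 in astrocytes and 6.40, 0 and 0 in microglia, on 7 reads that all lay in microglial replicate 1. *Nckap5* had 214, 227 and 238 in astrocytes and 3 reads over the microglial group, and was 179.9-fold higher in astrocytes (95% counting interval 61.4 to 874). *Cd69*, an activation marker of leukocytes, had 1946, 1849 and 1728 in microglia and 6.92, 16.2 and 7.77 in astrocytes (7.44, limma adjusted p = 1.8e-08). Endogenous *Sod1* (chromosome 16, 90220754 to 90226329) had 1185, 1009 and 1009.9 and 1372, 1282 and 1333, a difference of −0.32 that was not called (limma adjusted p = 0.0074) but was called at −1.10 under total-read scaling and −1.08 under quantile normalization.

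The same comparison was made in cells of *SOD1G93A* mice, in 6 other libraries of 2135439 to 11570122 reads. Of 11905 genes tested, 5567 were called (46.8%), 2684 higher in LPS microglia (22.5%) and 2883 in activated astrocytes (24.2%). LPS microglial replicate 3 stood apart here (15.7 and 20.3 by the chi-square against the others, beside 2.32 between them), and 5997 genes were called without it. Of the calls, 5148 were shared with WT, all on the same side, which is 84.7% of the WT calls and 92.5% of the *SOD1G93A* calls. Among product genes 406 were shared, 94.2% of 431 in WT and 98.1% of 414 in *SOD1G93A*. The difference in *SOD1G93A* cells was 7.87 for *Il1a*, 7.80 for *Tnf* and 5.26 for *C1qa*, beside 8.18, 7.96 and 4.94 in WT. *Lcn2* was at −3.22 beside −3.13, *Tslp* at −5.65 beside −6.14 and *Il6* at 5.89 beside 5.67. *C3*, not called in either, was at 0.23 in *SOD1G93A* cells and −0.14 in WT, and *Ccl2*, also not called in either, at −0.67 and −0.22. *Il1r1* was at −4.15 beside −3.08. Whether any of these differed between genotypes was not tested.

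How far the difference between the cell types changed from quiescent to reactive cells was tested over the 12 WT libraries, scaled together, as the difference between the reactive cells minus that between the quiescent cells. Of 12334 genes tested, 1871 were called (15.2%). The quiescent libraries had 2016139 to 10157188 reads, and astrocyte replicate 3 stood apart among them (8.97 and 6.5 against the others, beside 2.03 between them), without which 1859 genes were called. *Il1a* had 175, 136 and 196 normalized counts in quiescent microglia, 27949, 31213 and 30467 in LPS microglia, 64.1, 87.6 and 135 in quiescent astrocytes and 93, 143 and 82.3 in activated astrocytes, so that only the LPS microglia stood high (7.30, standard error 0.33, limma adjusted p = 9.5e-10). *Tnf* had 284, 251 and 270.0, 7452, 6836 and 6292, 10, 26.2 and 27.1 and 24.1, 33.4 and 23.7 in the same order, with quiescent microglia above both groups of astrocytes (4.22, standard error 0.38, limma adjusted p = 7.1e-07). *C1qa*, in contrast, had 9714, 10604 and 9706 in quiescent and 4134, 3286 and 3119 in LPS microglia, lower in the latter, and 64.1, 100.1 and 148 and 96.3, 161 and 94.9 in astrocytes, where the groups overlapped (−1.73, limma adjusted p = 0.0011, not called). The values were −0.67 (limma adjusted p = 0.2) for *C1qb* and −1.33 (limma adjusted p = 0.0052) for *C1qc*, neither of them called. *C1qa* was called with a pseudocount of 5 (−1.72), with edgeR (−1.62), with DESeq2 (−1.65) and without quiescent astrocyte replicate 3 (−2.01), and *C1qc* with DESeq2 (−1.28). Leaving out quiescent astrocyte replicate 1 or activated astrocyte replicate 2 moved *C1qb* to −0.34 and −0.33.

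*C3* and *Lcn2* were higher in the reactive than in the quiescent libraries of both cell types. *C3* had 66.7, 39 and 77.6 normalized counts in quiescent and 1374, 1667 and 1600.2 in LPS microglia, and 16, 22.8 and 26.1 in quiescent and 1913, 1532 and 1734 in activated astrocytes (−1.58, standard error 0.31, limma adjusted p = 0.00084). *Lcn2* had 188, 183 and 180.0 and 1724, 1297 and 1398 in microglia and 94.1, 138 and 150.2 and 13690.4, 12492 and 12736 in astrocytes (−3.70, standard error 0.21, limma adjusted p = 7.3e-09). *Csf1* had means of 159 ± 3.07 and 488 ± 55.2 in microglia and 246 ± 53.8 and 1526 ± 91.6 in astrocytes (−1.04, limma adjusted p = 0.00047). The calls of *C3* and *Csf1* were each lost in 10 of 12 fits that left out 1 library, with values of −1.88 to −1.39 for *C3* and −1.20 to −0.90 for *Csf1* over the 12 fits, that of *Csf1* also with DESeq2 (−0.98), and quantile normalization moved them to −3.19 and −1.59. *Ccl2*, with means of 107 ± 12.5 and 3523 ± 495 in microglia and 45.5 ± 21.5 and 4126 ± 288 in astrocytes, was not called by limma (−1.54, limma adjusted p = 0.0011). It was called with the replicate number as a block (−1.54), a pseudocount of 5 (−1.46), edgeR (−1.35), DESeq2 (−1.35) or quantile normalization (−3.06), and without quiescent astrocyte replicate 3 (−1.89). The values towards microglia were 7.39 for *Il1b* (limma adjusted p = 4.5e-10), 4.74 for *Il6* (limma adjusted p = 5e-09) and 6.41 for *Nos2* (limma adjusted p = 5.8e-09). In both cell types the reactive mean of *Il6* and *Nos2* was above the quiescent one.

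Motifs of factors that act in inflammation were searched in the promoters of the product genes. Sequences are the 250 bases before the start of a gene from RefSeq (GRCm38.p6), and 468 of the 633 product genes were matched. The letters GGG and TTTCC with any 2 bases between them, bound by NF-κB, were found on either strand in 1.65% of all 27025 promoters, in 1.83% of those of 9390 genes tested, in 7.91% of 139 products over 8-fold higher in LPS microglia and in 5.62% of 89 over 8-fold higher in activated astrocytes. In the same order, the letters TTTC and TTTC with any 2 bases between them, of the interferon-stimulated response element, were in 3.46%, 3.27%, 12.9% and 3.37%. TGANTCA, of AP-1, was in 7.82%, 5.51%, 18% and 6.74%, and GAGGAAGT, of the myeloid factor PU.1, in 2.79%, 2.95%, 6.47% and 0%. Matches of different motifs could overlap. The product shares rest on few promoters, 11 and 5 for NF-κB and 9 and 0 for PU.1. No share was taken over product genes as a whole, so the part that comes from choosing product genes was not tested. The shares carry no test, and a match is a run of letters, not a bound site. The promoters of 3 genes are printed because the same NF-κB letters stood in genes on opposite sides. *Cxcl3* (chr5:90785851-90786100) and *Il6* (chr5:30012864-30013113) were higher in microglia and *Serpina3n* (chr12:104406458-104406707) in astrocytes. All are on the plus strand, with NF-κB or AP-1 letters in capitals.
Cxcl3: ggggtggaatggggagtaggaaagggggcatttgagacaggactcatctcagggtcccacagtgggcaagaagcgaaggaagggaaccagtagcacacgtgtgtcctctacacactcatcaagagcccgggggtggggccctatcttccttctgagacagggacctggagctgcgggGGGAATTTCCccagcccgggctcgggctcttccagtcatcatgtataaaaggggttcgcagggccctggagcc
Il6: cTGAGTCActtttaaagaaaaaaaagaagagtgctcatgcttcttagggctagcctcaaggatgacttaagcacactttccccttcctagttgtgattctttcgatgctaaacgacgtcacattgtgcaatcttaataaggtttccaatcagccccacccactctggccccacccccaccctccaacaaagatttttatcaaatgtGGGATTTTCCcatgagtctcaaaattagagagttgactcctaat
Serpina3n: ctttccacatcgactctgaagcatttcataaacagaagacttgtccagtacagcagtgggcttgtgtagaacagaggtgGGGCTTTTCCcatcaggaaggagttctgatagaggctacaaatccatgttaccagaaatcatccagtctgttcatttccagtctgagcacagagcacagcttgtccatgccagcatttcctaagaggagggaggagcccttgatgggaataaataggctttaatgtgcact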

How the data were processed

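RNA-seq values are whole-gene signal that the authors deposited as counts divided by DESeq2 size factors, made from HiSeq 4000 reads with STAR 2.7.3a and RSEM on mm10 and R 3.6.1, per the labels and the study's methods; the annotation was not given in the sources used here. The deposited normalized counts stood in 4 tables. Whole reads were recovered for 100% of values (tolerance 0.001), joined by gene and rescaled by median-of-ratios size factors. The main test was limma 3.58.1 with an intensity trend in R 4.3.3, on log2(normalized count + 1), for genes with a mean of at least 10. On the recovered reads edgeR 4.0.16 called 6288 genes and DESeq2 1.42.0 called 6401. Depth, which sets the precision of low genes, was 4674300 to 8121620 reads in the 6 libraries compared and 2016139 to 11570122 over the 18 used. Groups came from the labels. Alternatives changed scaling, pseudocount, filter, tool, thresholds, block and libraries. The members and lists were chosen with earlier results of these data known. Genes named by rule were the activating factors and their receptors, the 2 called genes with the largest difference in each direction of each list and the 5 over all genes, with at least 100 normalized counts in the higher group and no overlap, and genes of the study. Other members of lists, pairs and markers were picked after their values were seen. Some members of lists and pairs are counted but not named or plotted here.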

Additional observations from a re-analysis of the deposited data

Results flagged for a closer look

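Of 12 genes examined, for 8 the difference between the reactive cells differed from that between quiescent cells by the test of that difference over the 12 WT libraries, beside 1871 of 12334 genes tested (15.2%). The 12 genes were picked with earlier results of these data known, so their share is no excess over that of all genes. The log2 values were 7.30 for *Il1a*, 7.39 for *Il1b*, 4.22 for *Tnf*, 4.74 for *Il6* and 6.41 for *Nos2*, all towards microglia. Towards astrocytes they were −3.70 for *Lcn2*, −1.58 for *C3* and −1.04 for *Csf1*. The calls of *C3* and *Csf1* were each lost in 10 of 12 fits that left out 1 library (−1.88 to −1.39 and −1.20 to −0.90 over the 12), and that of *Csf1* also with DESeq2 (−0.98).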

How the results depend on the processing

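The counts of genes called stayed within 1.5 times under every alternative run, apart from the following. Total-read scaling called 1640 genes higher in microglia and 5391 higher in astrocytes. An adjusted p under 0.05 at any fold called 10035 WT genes (4928 and 5107), 9600 *SOD1G93A* genes (4851 and 4749) and 5052 genes in the comparison with quiescent cells (2475 and 2577). With each library left out in turn there were 5372 to 6199 WT calls (2681 to 2891 higher in microglia and 2691 to 3308 higher in astrocytes), 4879 to 5997 *SOD1G93A* calls and 1603 to 1859 calls in the comparison with quiescent cells. Over all alternatives the named WT genes kept their direction and side of the threshold in 3953 values, crossed it upwards in 20, downwards in 20 and changed sign in 29. In the comparison with quiescent cells the numbers were 193, 14, 21 and 0. *Tnfrsf1a* (−0.52), *Acta2* (0.12), *Cd44* (−0.32), *Cxcl1* (−0.73), *Il18* (0.63), *Lif* (−0.15), *Lrp1* (−1.10) and *Spp1* (−0.12) changed sign under quantile normalization. *Tnfrsf1a* (−0.55), *Cd44* (−0.13), *Col1a1* (−0.27), *Col3a1* (−0.34), *Cspg4* (−0.05), *Cxcl1* (−0.53), *Il11* (−0.58), *Il6ra* (−0.65), *Lif* (−0.49), *Lrp1* (−0.75), *P2ry12* (−0.02) and *Tgfb2* (−0.60) changed sign under total-read scaling. *Lrp1* (−0.01) changed sign with edgeR. *Il18* (0.01) changed sign with DESeq2. *Acta2* (−0.28 to 0.18), *Fn1* (−0.08 to 0.15), *Il11* (−0.07 to 0.42), *Il18* (−0.30 to 0.25) and *Lrp1* (−0.05 to 0.20) changed sign with 1 library left out. The causes were not tested. The replicate number as a block gave 6051, 5357 and 1854 calls in the same order, and of the named genes it changed the call of *Ccl2* in the comparison with quiescent cells (−1.54). Same-numbered libraries of the 2 cell types correlated by at most 0.0472 in their deviations from the group means, but each microglial library correlated best with its own number in both genotypes. Correlations this small do not settle whether the numbers pair the libraries, which was not tested further. Depth of 4674300 to 8121620 reads in the 6 libraries compared, and down to 2016139 in the others, limits genes with a handful of reads in 1 cell type. Ratios are given for 1 to 3 reads there and lower bounds for 0, and fitted differences on more reads than that still depend on the added 1.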
